A study of Mus musculus with 12 samples.

Results

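The genes described here encode 10 feedback inhibitors of the mitogen-activated protein (MAP) kinase pathways: the dual-specificity phosphatase genes Dusp1, Dusp2, Dusp4, Dusp5, Dusp6 and Dusp10, the Sprouty genes Spry1 and Spry2, and the Spred genes Spred1 and Spred2. They were chosen by symbol, with earlier results of these data known, and 10 of 10 were among the 11022 genes of the table. The shares of all genes given beside their counts below are therefore a description and not a test of the set. mRNA was measured by RNA sequencing in cytotoxic T lymphocytes (CTL), which are CD8+ T cells expanded in culture, from female P14 mice aged 9 to 13 weeks. CD8+ T cells of these mice express a transgenic T cell receptor (TCR) for the gp33-41 peptide. All 12 cultures were activated for 48 h with gp33-41 peptide, interleukin 2 (IL-2) and interleukin 12, so unstimulated CTL had also met the antigen before. They were then expanded in IL-2 (20 ng/mL) for 5 days and used, without a sort, in the presence of IL-2. There were 4 groups of 3 cultures, from 3 mice: unstimulated CTL, CTL given peptide at 100 ng/mL for 4 h (TCR), and CTL given the same peptide together with IC87114 at 10 µM, an inhibitor of the phosphoinositide 3-kinase PI3K p110δ (TCR+PI3Kdi), or with PD184252 at 2 µM, an inhibitor of the kinases MEK1/2 (TCR+MEKi). DMSO was the vehicle control. No group used here received an inhibitor without peptide, and only 1 time after stimulation was measured.

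As background, a TCR that binds its peptide activates Ras, which starts the cascade of Raf, MEK1/2 and the MAP kinases ERK1/2. Active ERK phosphorylates transcription factors, and among the genes then transcribed are those for proteins that turn the pathway down. Dual-specificity phosphatases (DUSPs) of the MAP kinase phosphatase type remove the activating phosphates from ERK, p38 or JNK. Sprouty and Spred proteins act further upstream, at the level of Ras and Raf, and Spred proteins bind neurofibromin, which switches Ras off.

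The values were FPKM, fragments scaled to exon length and library size, and adjusted between samples by the authors. The estimated effective depth was 7860000 to 13250000 reads per sample. At that depth every gene of the 10 had at least 52.9 approximate reads in every culture except Spry1, which had 5.8 to 12.7 in unstimulated cells. All 8 CTL markers were in the table, with a summed level of 10180 to 11308 FPKM in unstimulated cultures and 30316 to 47417 FPKM in the other 9. Gzmb and Ifng carried most of that sum, and Ifng most of its difference (72.4 FPKM unstimulated, 29597 after peptide), while Cd3d, Cd3e and Cd3g were at 214, 125 and 324 FPKM before and 214.7, 111 and 258 FPKM after peptide. Of 4 B cell, 8 myeloid or dendritic, 2 natural killer and 3 CD4 T cell markers, 0, 2, 1 and 2 were listed in the table, and the sums of the last 3 lists lay between 1.31 and 11.25 FPKM in every culture. Klrb1c, the natural killer marker listed, fell after peptide (5.39 to 1.79 FPKM), and Cd4 was at 0.773 FPKM in unstimulated cells, 2.69 after peptide, 2.94 under PI3K and 0.450 under MEK inhibition. The other CD4 marker listed, Zbtb7b, was at 7.37, 5.29, 3.92 and 9.95 FPKM in the same order. It moved opposite to Cd4 after peptide and with the MEK inhibitor (MEK inhibitor against TCR 0.90, adjusted p = 6.73e-05, against -2.398 for Cd4). With the PI3K inhibitor against TCR the Cd4 values overlapped (log2 change 0.08, adjusted p = 0.866). The part of these markers in the results below was not tested. In bulk RNA, fewer cells of a type and less RNA per cell cannot be told apart. A gene was called when its Benjamini-Hochberg adjusted p, from limma on log2(FPKM + 0.1) over all 11022 genes, was under 0.05 and its change was more than 2-fold. "Rose" and "fell" below are used of called genes, and log2 changes are on the scale of FPKM + 0.1. The scaling between samples matters here. Bringing every sample to the same FPKM sum (the TPM scale) put the median of all genes at -0.41 log2 units for TCR against unstimulated, at 0.19 for the PI3K inhibitor against TCR and at 0.26 for the MEK inhibitor against TCR, where the deposited scaling had -0.01, 0.02 and 0.01.

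The stretch around the annotated transcription start is shown for 6 of the 10 genes, the 4 with a match to a searched motif and Spry1 and Dusp6, whose responses to peptide and to the MEK inhibitor stood out below. RefSeq (GRCm38.p6) gave a promoter of 300 bases, 250 before and 50 after the start, for 9 of the 10 genes, all except Dusp4. For Dusp1 and Dusp10 this start lies well inside the gene span given below, which comes from another annotation (GENCODE). Motif positions refer to the RefSeq start only. The motifs searched on both strands were CRE (TGACGTCA), AP-1 (TGANTCA), EGR (GCGNGGGCG), ETS (CCGGAA) and the CArG box bound by serum response factor. The matches did not overlap. Sequences run 5′ to 3′ on the strand of the gene, in lower case with motif matches in capitals.

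Dusp1 promoter, chr17:26508423-26508722 (- strand): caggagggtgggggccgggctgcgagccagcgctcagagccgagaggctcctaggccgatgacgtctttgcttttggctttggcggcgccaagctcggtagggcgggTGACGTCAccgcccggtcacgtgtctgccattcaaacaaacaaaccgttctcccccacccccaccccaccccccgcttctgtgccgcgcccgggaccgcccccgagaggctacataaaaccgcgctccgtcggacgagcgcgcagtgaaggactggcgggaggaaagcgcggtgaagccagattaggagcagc
Dusp2 promoter, chr2:127335909-127336208 (+ strand): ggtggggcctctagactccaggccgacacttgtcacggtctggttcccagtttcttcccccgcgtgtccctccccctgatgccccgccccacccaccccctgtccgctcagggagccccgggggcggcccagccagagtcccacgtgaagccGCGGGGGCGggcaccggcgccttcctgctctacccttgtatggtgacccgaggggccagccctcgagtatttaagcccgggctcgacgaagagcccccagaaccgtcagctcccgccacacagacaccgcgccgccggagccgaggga
Dusp5 promoter, chr19:53528895-53529194 (+ strand): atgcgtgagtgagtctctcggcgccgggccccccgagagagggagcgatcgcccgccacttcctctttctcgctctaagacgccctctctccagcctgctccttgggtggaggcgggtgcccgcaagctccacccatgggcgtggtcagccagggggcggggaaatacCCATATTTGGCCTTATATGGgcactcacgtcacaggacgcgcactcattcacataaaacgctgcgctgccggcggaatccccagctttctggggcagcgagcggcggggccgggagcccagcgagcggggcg
Dusp6 promoter, chr10:99262981-99263280 (+ strand): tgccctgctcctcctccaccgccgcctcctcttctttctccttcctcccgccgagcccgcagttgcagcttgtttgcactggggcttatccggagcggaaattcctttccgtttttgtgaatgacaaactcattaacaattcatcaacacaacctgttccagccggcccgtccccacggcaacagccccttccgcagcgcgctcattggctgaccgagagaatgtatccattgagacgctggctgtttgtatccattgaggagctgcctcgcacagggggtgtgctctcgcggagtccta
Spry1 promoter, chr3:37639697-37639996 (+ strand): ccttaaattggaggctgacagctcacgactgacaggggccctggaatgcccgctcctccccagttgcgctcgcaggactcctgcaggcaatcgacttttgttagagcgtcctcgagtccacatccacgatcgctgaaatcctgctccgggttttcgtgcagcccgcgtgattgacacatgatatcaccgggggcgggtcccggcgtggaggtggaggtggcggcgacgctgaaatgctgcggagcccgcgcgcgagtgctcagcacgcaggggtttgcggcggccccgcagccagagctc
Spry2 promoter, chr14:105896770-105897069 (- strand): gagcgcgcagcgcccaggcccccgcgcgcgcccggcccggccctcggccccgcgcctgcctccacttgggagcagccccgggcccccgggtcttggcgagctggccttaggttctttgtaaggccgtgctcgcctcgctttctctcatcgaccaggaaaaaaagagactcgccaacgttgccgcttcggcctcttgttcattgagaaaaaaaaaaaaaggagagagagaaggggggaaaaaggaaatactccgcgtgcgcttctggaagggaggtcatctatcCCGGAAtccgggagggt

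Dusp5 had a pair of CArG boxes side by side, at bases -82 to -73 and -72 to -63 from the start, whose first transcribed base is 0. A CArG box was present in 1.63% of the 32841 promoters of this length. Dusp2 had an EGR match at -98 to -90, a motif held by 5.55% of promoters, and Dusp1 had a CRE at -143 to -136, held by 1.79%. Spry2 had an ETS match downstream of the start, at 33 to 38, which 14.9% of promoters held. AP-1 was matched in 0 of the 9 promoters, against 7.81% of all. Dusp6, Dusp10, Spry1, Spred1 and Spred2 matched none of the 5 motifs, which says only that these letters are not in these windows.

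**Figure D1:**
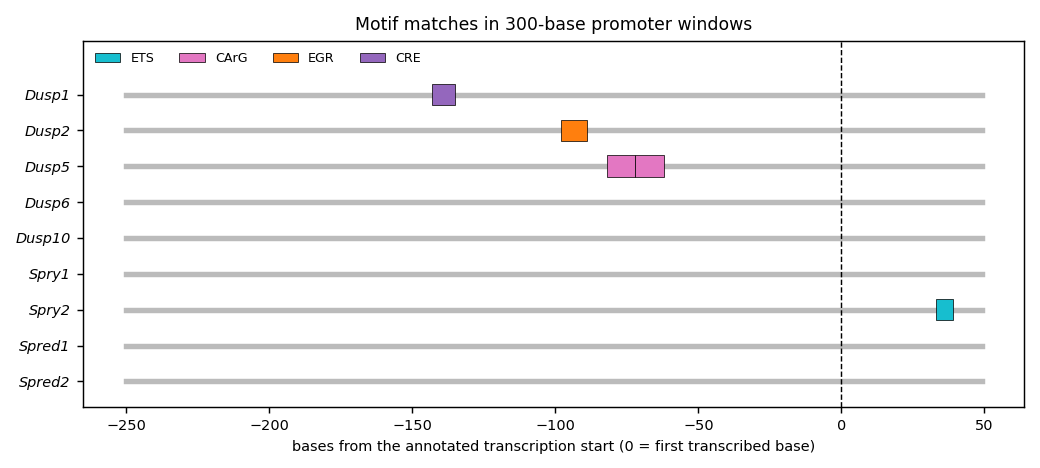
Positions of motif matches in the 300-base promoter windows of 9 genes (rows), on an axis in bases from the annotated transcription start; grey bars are the windows and coloured boxes the matches. The 2 CArG boxes of Dusp5 lie next to each other upstream of the start, and 5 of the 9 windows have no match.

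Antigen changed which feedback inhibitors the CTL expressed. TCR stimulation raised Dusp2, Dusp4, Dusp5, Spry1 and Spry2, 5 of the 10 genes, and lowered none past the threshold, against 8.87% of all genes called higher and 11.1% called lower in this comparison. The median log2 change of the 10 genes was 0.91, beside -0.01 over all genes. Without the fold threshold 8 of the 10 had an adjusted p under 0.05, against 68.6% of all genes, and the groups did not overlap for 8 of the 10, against 71.2% of all genes. On the TPM scale 4 were called higher and 1 lower, and over all genes the split went from 978 higher and 1224 lower to 647 higher and 2276 lower.

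**Figure D2:**
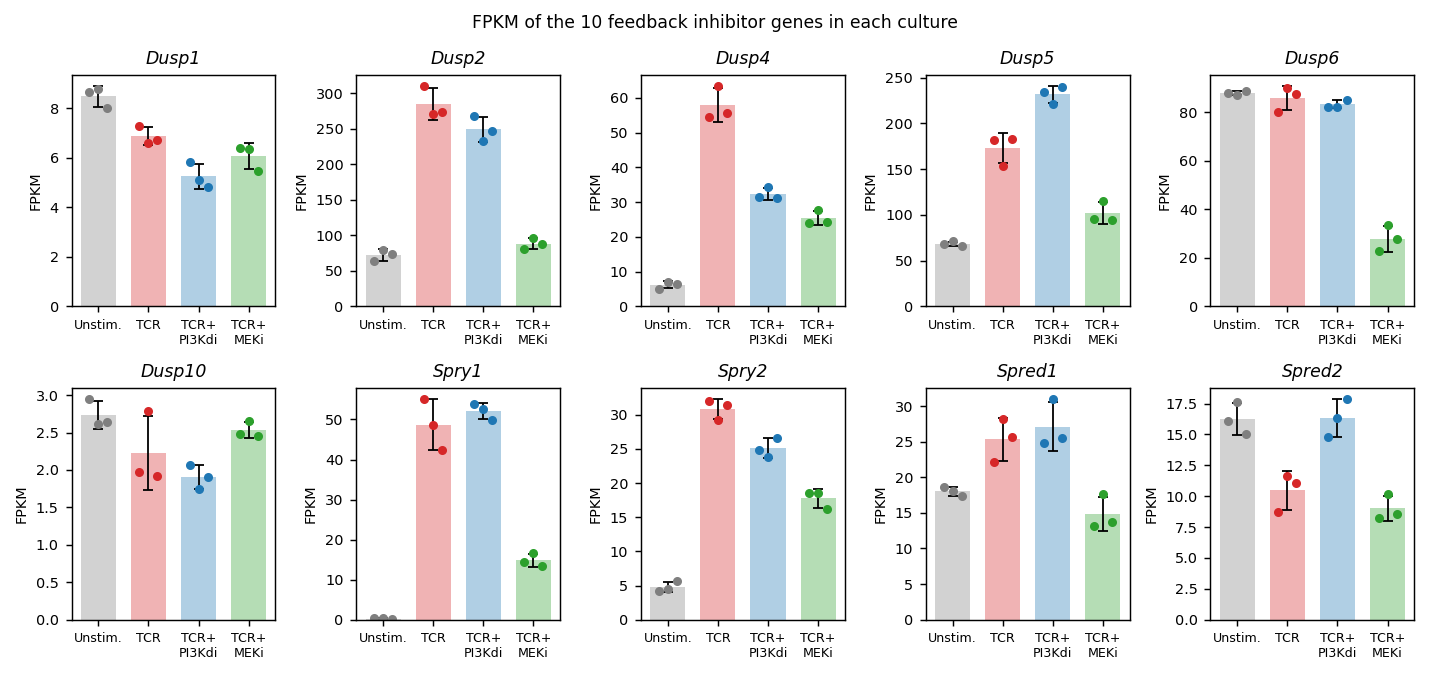
FPKM (y axis, linear, from 0, a separate scale per gene) of the 10 genes in each culture; points are the 3 cultures of a group, bars the means and whiskers the SD. The 5 genes that rose with peptide stand high in the TCR cultures, and Dusp6 is low only with the MEK inhibitor.

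Among the nuclear phosphatases, Dusp2, which encodes a phosphatase of ERK and p38 found mainly in haematopoietic cells (chromosome 2, 127336159 to 127338376), was at 63.9, 80.1 and 74.1 FPKM in the unstimulated cultures and at 311, 271 and 273 FPKM after peptide. The 2 groups were far apart, and the rise was 3.92-fold (log2 change 1.97, SE 0.09, adjusted p = 4.11e-11). MEK inhibition left Dusp2 at 81.4, 96.6 and 87.4 FPKM, 0.310 of the TCR mean (log2 change -1.69, SE 0.09, adjusted p = 4.30e-09). That level was close to the unstimulated one, though all 3 cultures lay above the highest unstimulated value, by a log2 change of 0.29 that was not called (adjusted p = 0.0112). With the PI3K inhibitor it was at 268, 233 and 247 FPKM, lower than TCR in 3 of 3 same-numbered pairs but with an adjusted p of 0.122 (log2 change -0.19, 95% interval -0.38 to -0.01).

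Dusp4, a nuclear phosphatase of ERK and JNK (chromosome 8, 34807297 to 34819894), had the largest relative rise of the 6 phosphatases among the 10 genes. It was at 5.10, 7.15 and 6.30 FPKM in unstimulated cells and at 54.6, 63.6 and 55.8 FPKM after peptide, 9.38-fold higher (log2 change 3.22, SE 0.10, adjusted p = 1.19e-12). Both inhibitors lay between these levels in every culture. The MEK inhibitor gave 24.1, 27.8 and 24.4 FPKM, a log2 change against TCR of -1.19 (SE 0.10, adjusted p = 8.92e-07). The PI3K inhibitor gave 31.6, 34.4 and 31.3 FPKM, a log2 change of -0.83 that stayed inside the 2-fold threshold (SE 0.10, adjusted p = 5.90e-05). The call with the MEK inhibitor was lost on the TPM scale (-0.92, adjusted p = 6.66e-06) and when limma's treat function tested against a 2-fold change. Dusp4 was still 4.11-fold higher with the MEK inhibitor than in unstimulated cells (log2 change 2.03, adjusted p = 3.50e-10).

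Dusp5, a nuclear phosphatase specific for ERK (chromosome 19, 53529109 to 53542431), moved in opposite directions with the 2 inhibitors. It was at 68.2, 70.9 and 65.7 FPKM in unstimulated cells and at 181, 154 and 183 FPKM after peptide (2.53-fold, log2 change 1.33, SE 0.08, adjusted p = 1.50e-09). With the PI3K inhibitor it was at 235, 222 and 239.6 FPKM, above every TCR culture (log2 change 0.43, SE 0.08, adjusted p = 0.00141, not called). The MEK inhibitor cultures were at 95.3, 116 and 94.5 FPKM, below every TCR culture and above every unstimulated one (log2 change against TCR -0.76, SE 0.08, adjusted p = 5.65e-06, not called). The difference between the inhibitor groups passed the threshold, with Dusp5 lower under MEK than under PI3K inhibition (log2 change -1.19, SE 0.08, adjusted p = 8.07e-08), but was not called by treat. The rise after peptide was 0.92 log2 units on the TPM scale and no longer called. The exons of Dusp5 overlap those of AC137853.2 on the other strand over 547 bases, and whether the counting used strand is not stated, so reads of the pair may not be told apart.

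Dusp1, a nuclear phosphatase that acts mostly on p38 and JNK (chromosome 17, 26505590 to 26562128), did not follow this pattern. It was at 8.67, 8.79 and 7.99 FPKM in unstimulated cells, 7.28, 6.59 and 6.72 after peptide, 5.82, 5.09 and 4.84 with the PI3K inhibitor and 6.40, 6.35 and 5.46 with the MEK inhibitor. All 9 stimulated cultures lay below the 3 unstimulated ones. The log2 change after peptide was -0.30 (adjusted p = 0.0126) and that with the PI3K inhibitor against TCR was -0.38 (adjusted p = 0.00981), neither past 2-fold. The latter had an adjusted p of 0.121 on the TPM scale. Its exons overlap those of Ergic1 on the other strand over 11 bases.

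Dusp6, the cytoplasmic phosphatase specific for ERK (chromosome 10, 99263231 to 99267489), was expressed without antigen. It was at 88.1, 87.0 and 88.7 FPKM in unstimulated cells, 80.3, 90.0 and 87.6 FPKM after peptide and 82.4, 82.4 and 85.2 FPKM with the PI3K inhibitor. The unstimulated and TCR groups overlapped, and the interval of the log2 change, -0.24 to 0.18, held no 2-fold change in either direction (log2 change -0.03, adjusted p = 0.771). Under MEK inhibition it was at 22.7, 33.5 and 27.6 FPKM, far below all 9 other cultures. It fell to 0.325 of the TCR mean (log2 change -1.63, SE 0.10, adjusted p = 2.23e-08) and to 0.318 of the unstimulated mean (log2 change -1.67, SE 0.10, adjusted p = 1.71e-09). Of the 10 genes it was the 1 gene called below its unstimulated level with the MEK inhibitor.

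Dusp10, a phosphatase of p38 and JNK (chromosome 1, 184013302 to 184075636), was the lowest of the 6 phosphatases in every group. It was at 2.95, 2.62 and 2.64 FPKM in unstimulated cells, 1.97, 2.79 and 1.92 after peptide, 2.06, 1.75 and 1.91 with the PI3K inhibitor and 2.48, 2.66 and 2.46 with the MEK inhibitor. TCR replicate 2 lay among the unstimulated values and the other two TCR cultures below them. Dusp10 was called in 0 of the 6 comparisons. Its adjusted p was 0.0726 for TCR against unstimulated, and the 1 value under 0.05 was for the PI3K inhibitor against unstimulated (log2 change -0.50, adjusted p = 0.00715).

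Spry1, which encodes an inhibitor of Ras and Raf signalling downstream of receptors (chromosome 3, 37639947 to 37644598), showed the steepest response of the 10. It was at 0.39, 0.31 and 0.15 FPKM in unstimulated cells, among the lowest 3.6% of genes by mean level, and at 55.2, 48.5 and 42.3 FPKM after peptide. The ratio of the means was 172 and the log2 change 7.04 (SE 0.18, adjusted p = 9.04e-14), the 19th highest of all 11022 genes. Because the unstimulated level rests on few reads, the log2 change depended on the pseudocount, at 5.27 with 1 and 7.47 with 0.01. With the PI3K inhibitor Spry1 was at 53.9, 52.7 and 49.8 FPKM, within the range of the TCR cultures (log2 change 0.11, 95% interval -0.28 to 0.50, adjusted p = 0.709). Under MEK inhibition Spry1 was at 14.5, 16.7 and 13.4 FPKM, well below all TCR cultures and well above all unstimulated ones. The fall against TCR was to 0.305 (log2 change -1.71, SE 0.18, adjusted p = 6.09e-06), and it was not called by treat (adjusted p = 0.0787). The level left with the MEK inhibitor was 52.3 times the unstimulated mean (log2 change 5.33, SE 0.18, adjusted p = 4.14e-12). The exons of Spry1 overlap those of Gm42922 on the other strand over 710 bases.

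Spry2, a related inhibitor (chromosome 14, 105891947 to 105896819), rose from 4.27, 4.46 and 5.63 FPKM to 32.0, 29.3 and 31.4 FPKM after peptide (6.45-fold, log2 change 2.67, SE 0.10, adjusted p = 3.82e-12). Both inhibitor groups lay below every TCR culture. They were at 24.8, 23.8 and 26.6 FPKM with the PI3K inhibitor (log2 change -0.30, SE 0.10, adjusted p = 0.0331) and at 18.5, 18.5 and 16.2 FPKM with the MEK inhibitor (log2 change -0.80, SE 0.10, adjusted p = 1.88e-05), and neither change reached 2-fold. Spry2 with the MEK inhibitor was 3.71-fold above the unstimulated mean (log2 change 1.88, adjusted p = 3.37e-10).

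The Spred genes were called in 0 of the 3 comparisons of peptide with unstimulated cells and of each inhibitor with TCR, and after peptide their log2 changes had opposite signs. Spred1 (chromosome 2, 117121374 to 117182279) was at 18.6, 18.1 and 17.4 FPKM in unstimulated cells, 22.1, 28.2 and 25.7 after peptide, 24.9, 31.0 and 25.5 with the PI3K inhibitor and 13.2, 17.6 and 13.7 with the MEK inhibitor. It was higher after peptide (log2 change 0.48, SE 0.11, adjusted p = 0.00173) and lower when MEK was inhibited than after peptide alone (log2 change -0.77, SE 0.11, adjusted p = 0.000127), both inside 2-fold. Spred2 (chromosome 11, 19924375 to 20024026) was at 16.1, 17.6 and 15 FPKM in unstimulated cells and lower in every TCR culture, at 8.71, 11.7 and 11.04 FPKM (log2 change -0.64, SE 0.11, adjusted p = 0.000170). With the PI3K inhibitor it was at 14.8, 16.4 and 17.9 FPKM, overlapping the unstimulated cultures and above every TCR culture (log2 change against TCR 0.64, SE 0.11, adjusted p = 0.000949). In the MEK inhibitor cultures it was at 8.26, 10.2 and 8.57 FPKM, overlapping the TCR cultures (adjusted p = 0.169). The lower level after peptide passed the 2-fold threshold on the TPM scale (-1.05, adjusted p = 2.22e-06).

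**Figure D3:**
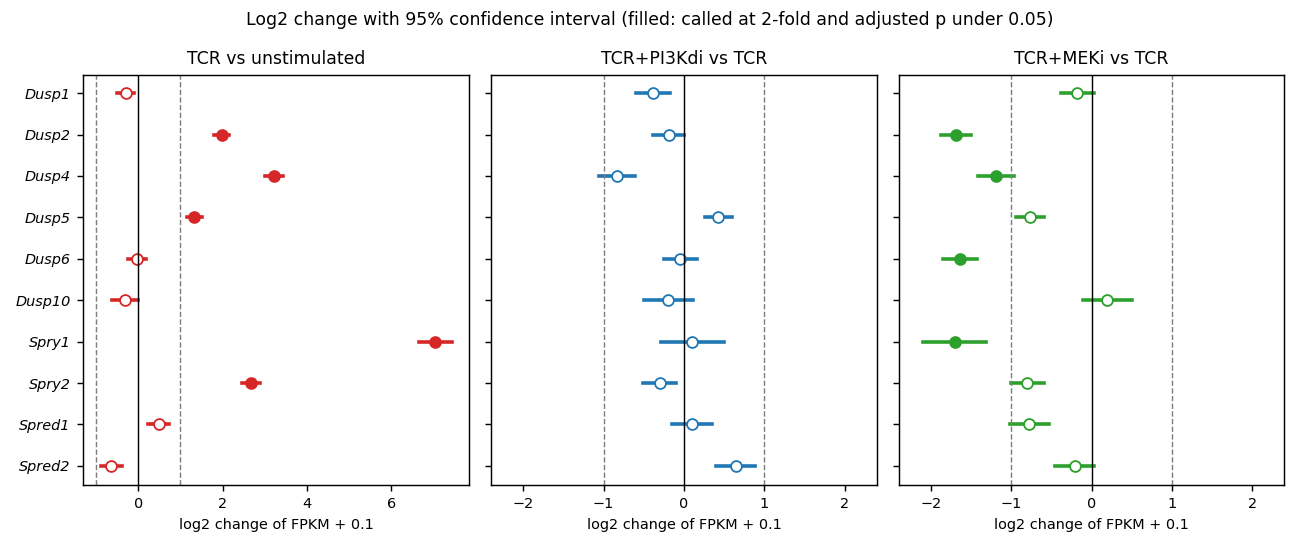
Log2 change of FPKM + 0.1 (x axis, a wider range in the left panel) for the 10 genes (rows) in 3 comparisons; lines are 95% confidence intervals, dashed lines mark 2-fold, and filled points are called. Peptide has 5 genes called higher, the PI3K inhibitor 0 genes called and the MEK inhibitor 4 called lower.

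PI3K p110δ inhibition called 0 of the 10 genes against TCR alone, where 0.499% of all genes were called higher and 1.38% lower, so a count of 0 in 10 is near the background. At an adjusted p under 0.05 without the fold threshold there were 5 of the 10, against 25.6% of all genes. Dusp1, Dusp4 and Spry2 were then lower, and Dusp5 and Spred2 higher. The groups did not overlap for 6 of the 10 genes and for 37.6% of all genes. Over all genes the PI3K inhibitor split was 55 higher and 152 lower, and 119 and 107 on the TPM scale.

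MEK1/2 inhibition lowered Dusp2, Dusp4, Dusp6 and Spry1, 4 of the 10 genes, against 2.51% of all genes called lower, and raised none, against 0.98% called higher and 3.49% called either way. The median log2 change of the 10 was -0.79, beside 0.01 over all genes. The groups did not overlap for 8 of the 10 genes and for 48.8% of all genes. Without the fold threshold 7 of the 10 had an adjusted p under 0.05, all lower, against 37.1% of all genes in either direction. The TPM scale gave 3 genes lower, without Dusp4, and changed the split over all genes from 108 higher and 277 lower to 323 higher and 202 lower. treat left 2 of the 4 genes, Dusp2 and Dusp6.

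The inhibitor groups share their TCR cultures, so their changes against TCR are not independent, and the direct comparison of the inhibitor groups tests the difference. In it Dusp2, Dusp5, Dusp6 and Spry1 were called lower under MEK than under PI3K inhibition, 4 of the 10 genes, against 1.71% of all genes called lower and 1.39% called higher. Without the fold threshold there were 8 of the 10 (28.9% of all genes), and the groups did not overlap for 9 (43.6%). The log2 changes were -1.497 for Dusp2, -1.19 for Dusp5, -1.59 for Dusp6 and -1.81 for Spry1 (adjusted p = 2.08e-08, 8.07e-08, 3.01e-08 and 4.08e-06). Spred1 (-0.87, adjusted p = 4.94e-05) and Spred2 (-0.85, adjusted p = 6.09e-05) were inside 2-fold, and Spred1 passed it without TCR+MEKi replicate 2 (-1.0005). For Dusp4 the inhibitor groups differed by -0.35 (adjusted p = 0.0197, or 0.0751 on the TPM scale).

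The genes that rose with antigen differed in how much of the rise each inhibitor left. The share kept was the difference between the inhibitor and unstimulated means as a percentage of the difference between the TCR and unstimulated means, on the linear FPKM scale, and is a description without a test. Under MEK inhibition the share kept was 7.41% (SE 3.0) for Dusp2, 30.1% (SE 3.1) for Spry1, 32.1% (SE 7.3) for Dusp5, 37.2% (SE 3.1) for Dusp4 and 49.6% (SE 3.4) for Spry2. Dusp2 lost nearly all of its rise, while the other four kept between 30.1% and 49.6%. With the PI3K inhibitor it was 50.7% (SE 3.4) for Dusp4, 77.8% (SE 4.0) for Spry2, 83.2% (SE 7.0) for Dusp2, 107% (SE 8.6) for Spry1 and 157% (SE 15) for Dusp5. The order of the genes was thus not the same for the 2 inhibitors.

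**Figure D4:**
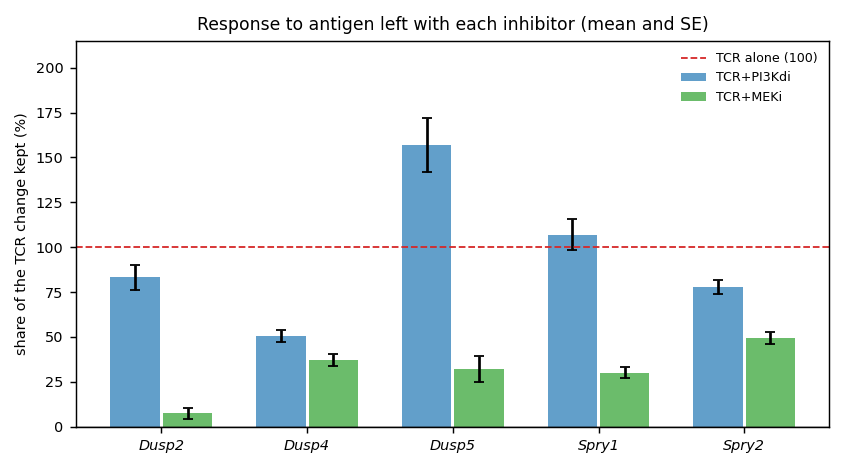
Share of the antigen response kept with each inhibitor (y axis, percent of the change in mean FPKM from unstimulated to TCR) for the 5 genes that rose with peptide; bars are the values, whiskers the SE, and the dashed line marks TCR alone. Dusp2 keeps 7.41% with the MEK inhibitor, and Dusp5 is above 100% with the PI3K inhibitor.

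Against unstimulated cells, peptide with the PI3K inhibitor called the same 5 genes higher as peptide alone, 5 of 10 against 7.16% of all genes called higher, and 0 lower against 7.43%. The log2 changes were 1.78 for Dusp2, 2.38 for Dusp4, 1.76 for Dusp5, 7.14 for Spry1 and 2.37 for Spry2. Without the fold threshold there were 8 of the 10 (62.5% of all genes), and the groups did not overlap for 9 (66.0%). Peptide with the MEK inhibitor called Dusp4, Spry1 and Spry2 higher and Dusp6 lower, 3 and 1 of 10 against 6.95% and 6.46% of all genes. Here 9 of the 10 had an adjusted p under 0.05 (59.6% of all genes), and the groups did not overlap for 8 (66.7%). Counts over all genes on the TPM scale were 623 higher and 1272 lower with the PI3K inhibitor (789 and 819 on the deposited scale) and 660 higher and 1003 lower with the MEK inhibitor (766 and 712), and the members called numbered the same.

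The make-up of the phosphatase mRNAs shifted accordingly, with levels compared per length. The 6 phosphatases summed to 246 ± 9.87 FPKM in unstimulated cells, 611 ± 24.6 after peptide, 604 ± 23.5 under PI3K and 252 ± 26.6 under MEK inhibition (SD, n = 3). In unstimulated cells Dusp6 made up 35.7% ± 1.67 of the sum, Dusp2 29.5% ± 2.21 and Dusp5 27.7% ± 1.01, and the FPKM of Dusp2 and Dusp5 overlapped between genes. After peptide the order was Dusp2 (46.6% ± 2.03), Dusp5 (28.2% ± 1.98), Dusp6 (14.1% ± 1.38) and Dusp4 (9.52% ± 1.16), and the levels of these 4 genes did not overlap. With the PI3K inhibitor the shares of Dusp2 and Dusp5 were 41.2% ± 1.43 and 38.4% ± 0.831, with overlapping FPKM. Under MEK inhibition the sum was close to that of unstimulated cells but was divided differently, with Dusp5 at 40.3% ± 1.08, Dusp2 at 35.1% ± 0.971, Dusp6 at 11.02% ± 1.10 and Dusp4 at 10.1% ± 0.259. The FPKM of Dusp5 and Dusp2 overlapped there, and so did those of Dusp6 and Dusp4.

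The 4 Sprouty and Spred genes summed to 39.3 ± 1.14 FPKM in unstimulated cells, 115 ± 4.203 after peptide, 121 ± 2.86 under PI3K and 56.4 ± 5.81 under MEK inhibition. Spred1 and Spred2 held 45.8% ± 1.31 and 41.2% ± 2.13 of the sum before stimulation. Spry1 went from 0.716% ± 0.301 to 42.1% ± 4.29 after peptide and was at 43.2% ± 2.04 with the PI3K inhibitor. Under MEK inhibition Spry2 (31.6% ± 2.35), Spry1 (26.3% ± 0.428) and Spred1 (26.2% ± 1.88) were close, and the FPKM ranges of neighbouring genes in this order overlapped.

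Other genes of the family that were called after peptide, or with an inhibitor against TCR, were all lower. Of 7 other MAP kinase phosphatase, Sprouty and Spred genes 6 were in the table, and their median log2 change was 0.05 after peptide and -0.12 with the MEK inhibitor. Dusp7, a cytoplasmic ERK phosphatase, fell from 7.91 ± 0.576 to 2.65 ± 0.408 FPKM after peptide (log2 change -1.55, SE 0.13, adjusted p = 7.86e-08). It was the 1 called of the 6, against 20.0% of all genes called either way, so this count is near the background. Against TCR, 2 of the 6 fell under MEK inhibition, where 2.51% of all genes were called lower. Spry4, a Sprouty gene, was at 2.21, 2.96 and 2.73 FPKM after peptide and at 1.08, 1.78 and 0.83 FPKM with the MEK inhibitor, without overlap (log2 change -1.09, SE 0.21, adjusted p = 0.00118). Dusp9, an ERK phosphatase at low level, was at 1.29, 0.93 and 1.21 and at 0.42, 0.77 and 0.41 FPKM (log2 change -1.01, SE 0.23, adjusted p = 0.00295). Neither passed the 2-fold threshold on the TPM scale (-0.84 and -0.77). Spry4 was also lower in the direct comparison of the inhibitor groups (-1.11, adjusted p = 0.00123). With the PI3K inhibitor against TCR 0 of the 6 were called, against 1.88% of all genes. Dusp16, the most abundant of those not called in these comparisons, was at 2.77 FPKM in unstimulated cells, 5.03 after peptide, 4.49 under PI3K and 5.82 under MEK inhibition (group means). Against unstimulated cells, peptide with the MEK inhibitor had Dusp8 and Dusp16 called higher (1.56 and 1.05) and Dusp7 and Spry4 called lower (-1.52 and -1.41). These were 2 and 2 of the 6, against 6.95% and 6.46% of all genes. Dusp8 was at only 0.08 FPKM in unstimulated cells.

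Among the kinases and Ras regulators of the ERK cascade itself 1 gene was called with each inhibitor against TCR, where 1.88% of all genes were called under PI3K and 3.49% under MEK inhibition. Of 22 genes listed 21 were in the table, with a median log2 change of -0.02 after peptide, 0.10 under PI3K and 0.01 under MEK inhibition. After peptide 1 rose and 3 fell, against 8.87% of all genes called higher and 11.1% called lower, so these counts are near the background. Ksr1, a scaffold of the cascade, rose from 17.3 ± 1.28 to 42.0 ± 4.15 FPKM (log2 change 1.27). Rasgrp1, a Ras activator, fell from 57.0 ± 2.37 to 9.71 ± 0.415 FPKM (-2.54), Rasa3, a GTPase-activating protein for Ras, from 39.0 ± 2.27 to 12.5 ± 0.768 (-1.63), and Mapk3, which encodes ERK1, from 26.9 ± 0.778 to 12.6 ± 0.496 (-1.09). The PI3K inhibitor lowered Ksr1 to 19.5 ± 1.98 FPKM (-1.11, adjusted p = 1.09e-06) and the MEK inhibitor raised Rasgrp1 to 22.4 ± 1.04 FPKM (1.20, adjusted p = 1.05e-07). Rasa3 and Rasa1, both for GTPase-activating proteins, were 1.94-fold and 1.53-fold higher with the PI3K inhibitor, inside the threshold (adjusted p = 4.49e-07 and 2.55e-05). Both calls on Ksr1 were lost on the TPM scale, where those on Rasgrp1 held and Rasa3 was called higher with the PI3K inhibitor (1.13). Grb2, the most abundant of the genes not called, was at 66.3, 69.4, 63.9 and 64.3 FPKM in the 4 groups. The drug targets Map2k1 and Map2k2, for MEK1 and MEK2, were not called in any of these 3 comparisons, and neither was Pik3cd, for p110δ (log2 changes -0.89, 0.82 and 0.10), though its lower level after peptide was called on the TPM scale (-1.30).

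Genes known to respond to ERK, listed as transcription factor and target genes, were set beside the inhibitors of the pathway. All 20 were measured, and the list was chosen with earlier results of these data known. After peptide 12 rose and 0 fell, against 8.87% and 11.1% of all genes. Under MEK inhibition 10 fell and 0 rose, against 2.51% and 0.98% of all genes. With the PI3K inhibitor 2 fell, against 1.38% of all genes. Median log2 changes of the 20 genes were 1.20, -0.96 and -0.54 in the same order. Egr1, an immediate early transcription factor gene, was at 37.2 ± 2.29 FPKM in unstimulated cells, 87.5 ± 10.5 after peptide, 60.8 ± 5.32 under PI3K and 4.47 ± 0.922 under MEK inhibition, and like Dusp6 it was called below its unstimulated level there (log2 change -3.05, adjusted p = 1.93e-11). Egr2 went from 1.47 ± 0.0551 to 172 ± 7.88 FPKM with peptide and to 30.7 ± 6.47 with the MEK inhibitor (log2 change against TCR -2.499, adjusted p = 1.63e-09). Epha2, a receptor kinase gene, was at 6.37 ± 0.462 FPKM after peptide, 2.67 ± 0.118 under PI3K and 0.403 ± 0.133 under MEK inhibition. The response was not uniform. Myc rose with peptide from 125 ± 1.92 to 290.4 ± 20.9 FPKM and was at 290.3 ± 13.8 FPKM with the MEK inhibitor (adjusted p = 0.992). The others that fell with the MEK inhibitor were Ccnd1, Egr3, Etv5, Fos, Fosb, Fosl1 and Phlda1, by 1.08 to 1.89 log2 units. The TPM scale gave 8 that rose after peptide and 8 that fell with the MEK inhibitor, beside 647 and 202 of all 11022 genes. Egr1, Ier2, Junb and Myc were lost from those that rose, and Etv5 and Fosl1 from those that fell.

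**Figure D5:**
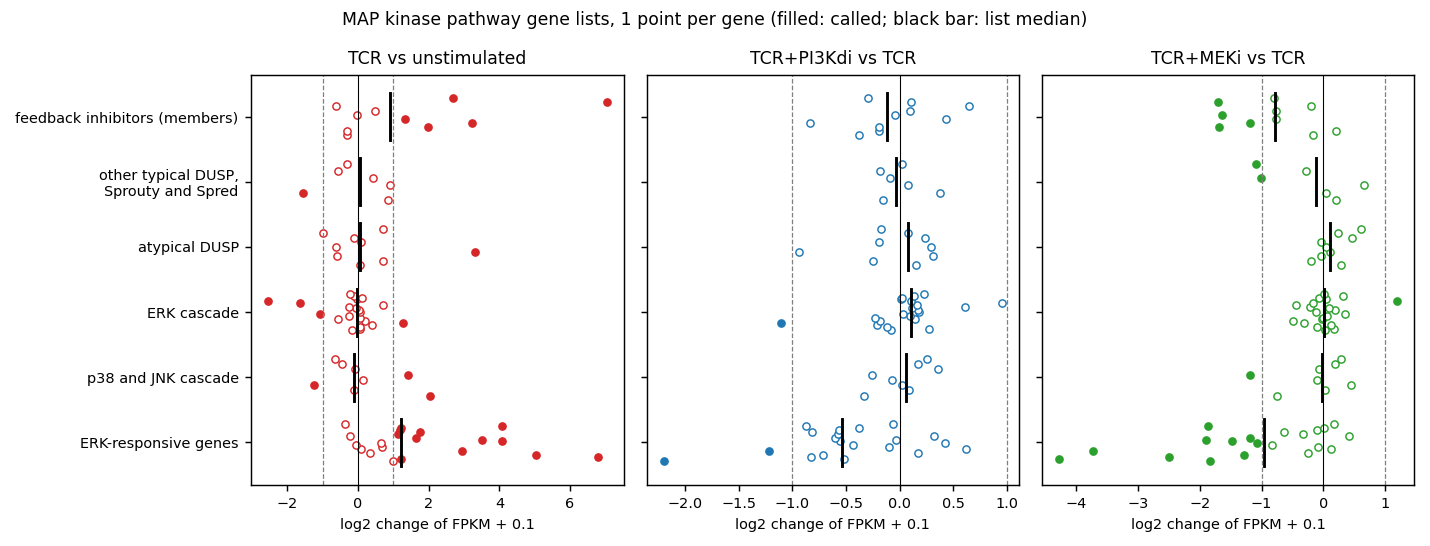
Log2 change of FPKM + 0.1 (x axis, separate range per panel) of each gene of 6 lists (rows) in 3 comparisons; filled points are called, black bars are list medians and dashed lines mark 2-fold. The feedback inhibitors and the ERK-responsive genes have medians of -0.79 and -0.96 with the MEK inhibitor. The other 4 lists have medians from -0.12 to 0.11 there. Dusp9, Spry4 and Mapk11 are called lower, Rasgrp1 higher and 0 of the atypical phosphatases either way.

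The genes closest to each member called lower with the MEK inhibitor against TCR were found among the 10233 genes with a mean of at least 1 FPKM in a group. The measure was the root mean square difference of 3 log2 changes (TCR against unstimulated, and each inhibitor against TCR), a description over 4 group means. Nearest to Dusp2 was Srxn1, which encodes sulfiredoxin, at a distance of 0.04 log2 units and with means of 15.8, 63.5, 54.8 and 18.8 FPKM in unstimulated, TCR, PI3K inhibitor and MEK inhibitor cultures, followed by Gm5483 (0.18) and 2010005H15Rik (0.18). Nearest to Dusp4 was Slc41a1, for a magnesium transporter, at 0.03 and with means of 2.43, 23.1, 12.8 and 10.5 FPKM, followed by Gm16516 (0.12) and Traf5 (0.16). For Dusp6 these were C630004H02Rik (0.14), Ccdc164 (0.27) and Spry4 (0.35). For Spry1 the nearest genes were farther away, at 0.52 for Crtam, 0.53 for Tagap and 0.66 for Nr4a1. These distances were computed with a pseudocount of 0.1 only. The log2 change of Spry1 after peptide was 5.27 with a pseudocount of 1 and 7.47 with 0.01, so its neighbours and their distances depend on that choice.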

How the data were processed

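Messenger RNA of 12 CTL cultures (TruSeq Stranded mRNA libraries, paired-end reads of 100 bases) was available as 1 table. The authors aligned reads with STAR 2.4.2a to mm10, counted them per RefSeq gene with Subread 1.5.0, removed low genes, scaled the counts by TMM and computed the deposited FPKM with edgeR. Whether counting used strand is not given in the sources used here. FPKM are not counts, so log2(FPKM + 0.1) of all 11022 genes was fitted with limma 3.58.1 in R 4.3.3 (1 mean per group, 12 samples, trend, no block), for 6 comparisons. p-values were adjusted over all genes, and a call needed an adjusted p under 0.05 and more than 2-fold. The study itself used limma-voom on counts. Value columns that could not be assigned to a sample numbered 0.

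Effective depth came from the spacing of the lowest FPKM. Of 139 to 186 such values in each culture, 61.9% to 69.9% were whole reads to within 0.15 (30% by chance), so whole reads were not recovered. Floors and read numbers cover counting error only. Replicates of a group correlated with r from 0.992 to 0.995 across genes, which are not independent replicates, and 2 to 73 genes per sample were listed at 0. After group means were subtracted (9899 genes), cultures with equal numbers correlated by over 0.1 in all 3 pairs in 4 of 6 comparisons: the PI3K inhibitor against TCR (0.239 to 0.451), and the MEK inhibitor against TCR (0.122 to 0.182), against the PI3K inhibitor (0.137 to 0.149) and against unstimulated (0.117 to 0.147). They did not for TCR (0.004 to 0.153) or the PI3K inhibitor (-0.062 to 0.114) against unstimulated. The numbers come from the sample labels, which do not say if a number marks 1 mouse across groups. The study states that 3 mice gave its 3 biological replicates. The block was an alternative, and the SEs, intervals and adjusted p given are from the fit without it.

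The members and the gene lists were chosen with earlier results of these data known. Named genes are all members, the called genes of the family and cascade lists with the most abundant one not called, and the 3 genes most like each member called with the MEK inhibitor. The ERK-responsive genes named were outside that rule and chosen after their values were seen. Positions and exon overlaps come from GENCODE M21 (GRCm38). 0.0% of the 100-base stretches of the members' transcripts occurred in transcripts of another gene. Alternatives were a low-value filter (mean FPKM 1), pseudocounts of 0.01 and 1, a common FPKM sum (TPM scale), quantile normalisation, the replicate block, the compared groups alone, no trend, treat, adjusted p alone and leaving out each culture. The procedure was tested on simulated data. Python 3.11.15, NumPy 2.4.6, pandas 2.3.3 and matplotlib 3.10.9 were used.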

Additional observations from a re-analysis of the deposited data

How the results depend on the processing

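Of the recomputed counts of members called, 182 were within 1.5 times the count reported and 10 were not. Of the recomputed log2 changes, 920 kept their direction and call, 25 became called, 5 lost their call and 10 took the other sign. Of the 25, 23 came from calling by adjusted p alone, without the 2-fold threshold. Without the 2-fold threshold the counts rose: for TCR against unstimulated 2 lower, for the PI3K inhibitor against TCR 2 higher and 3 lower, for the MEK inhibitor against TCR 7 lower and against the PI3K inhibitor 8 lower, and against unstimulated 2 lower with the PI3K inhibitor and 5 higher and 4 lower with the MEK inhibitor. treat left 2 members lower for the MEK inhibitor against TCR, and the TPM scale called 1 lower after peptide. With the replicate block the counts were those reported (5 higher after peptide, 0 with the PI3K inhibitor and 4 lower with the MEK inhibitor against TCR), and the block changed no call on a member. Leaving out each culture in turn gave 4 to 5 members lower for the MEK against the PI3K inhibitor and the reported count otherwise. The 10 that took the other sign were not called. For the PI3K inhibitor against TCR, Dusp6 became 0.14 by TPM scaling and 0.0745 by quantile normalisation. For the MEK inhibitor against TCR, Dusp1 became 0.0811 and Spred2 0.0496 on the TPM scale. Spred2 for the PI3K inhibitor against unstimulated became -0.22 on the TPM scale, -0.0174 after quantile normalisation, -0.0475 without Unstimulated replicate 3 and -0.0587 without TCR+PI3Kdi replicate 3 (highest 0.0769 with 1 culture left out). Dusp6 after peptide ranged from -0.0682 to 0.0142, the latter without TCR replicate 1, and Spred1 for the PI3K inhibitor against TCR from -0.001, without TCR+PI3Kdi replicate 2, to 0.1797. The cause of these changes was not tested. The share of the antigen response kept on the TPM scale with the PI3K inhibitor was 99.0% for Dusp2, 57.3% for Dusp4, 212% for Dusp5 and 90.3% for Spry2, and with the MEK inhibitor 44.6% for Dusp4, 36.1% for Spry1 and 60.9% for Spry2. The deposited FPKM sums, which that scale divides out, were 620715 to 666922 after peptide, 549897 to 585849 with the PI3K inhibitor and 524343 to 539350 with the MEK inhibitor. Among the 10 genes, Spry1 in unstimulated cells, at 5.8 to 12.7 approximate reads, is the level most limited by depth.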

Other observations

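Atypical dual-specificity phosphatases, which mostly lack the MAP kinase binding part of the typical ones, were measured beside the 10 feedback genes. Of 14 listed 9 were in the table. With peptide 1 was called higher and 0 lower, against 8.87% and 11.1% of all genes, with a median log2 change of 0.06. With the PI3K or the MEK inhibitor against TCR 0 were called, against 1.88% and 3.49% of all genes (medians 0.07 and 0.11). These counts are near the background. The 1 gene called higher after peptide was Dusp18, at 0.13, 0.06 and 0.05 FPKM in unstimulated cells and 1.70, 1.67 and 1.59 FPKM after peptide. Dusp18 was thus very low in unstimulated cells, and the reads behind these values were not estimated. It was at 0.76, 0.85 and 0.84 FPKM with the PI3K inhibitor and 1.78, 1.90 and 1.70 with the MEK inhibitor, so it was lower with the PI3K inhibitor (log2 change -0.94, adjusted p = 0.00157, not called, but -1.02 and called after quantile normalisation) and differed between the inhibitors by 1.05 (adjusted p = 0.000482). The most abundant, Dusp11, was at 24.8 FPKM in unstimulated cells and 25.9 after peptide. By TPM scaling 3 of the 9 were called lower after peptide, beside 2276 of all 11022 genes.

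In the p38 and JNK cascade 8 of 11 genes were in the table. Of these 2 were called higher after peptide and 1 lower, against 8.87% and 11.1% of all genes. After peptide Map2k3, which encodes a kinase that activates p38, rose from 57.5 ± 1.07 to 238 ± 6.33 FPKM (log2 change 2.05, adjusted p = 3.04e-14). Mapk11, for p38β, rose from 3.42 ± 0.494 to 9.12 ± 0.0917 FPKM (1.40, adjusted p = 3.57e-08), and Map2k6 fell (-1.24, adjusted p = 0.000942). With the MEK inhibitor Mapk11 fell to 3.94 ± 0.220 FPKM (-1.19, adjusted p = 1.69e-06), the 1 called of the 8, against 3.49% of all genes. Map2k3 was then at 141 ± 6.91 FPKM (-0.76, not called). Both calls on Mapk11 were lost on the TPM scale. Mapk14, for p38α, was the most abundant gene not called, at 33.6, 31.4, 40.3 and 29.9 FPKM in unstimulated, TCR, PI3K inhibitor and MEK inhibitor cultures.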
